A study of Rattus norvegicus with 32 samples.

Results

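The hypoxia-inducible factor (HIF) genes were followed in rat hypothalamus and brainstem after an acute ozone exposure. The 10 genes chosen by name were the oxygen-regulated subunits Hif1a, Epas1 and Hif3a, their partners Arnt and Arnt2, the prolyl hydroxylases Egln1 and Egln3, the ubiquitin-ligase subunit Vhl, and the target genes Vegfa and P4ha1. Of them, 9 were measured, among 22587 genes in the table, and Egln1 was not analysed here. Hif3a was chosen because of its level in sham-operated rats breathing ozone. Values that contrast those libraries with any other group are therefore given as a description, with no p-value, for every one of these genes, and nothing is read from the number of them that the fit marked there.

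All rats were Wistar Kyoto, 13 weeks old, and each of the 8 groups had 4 libraries. In each tissue the groups were adrenalectomized (ADREX) rats that breathed ozone, ADREX rats that breathed filtered air, sham-operated rats that breathed ozone, and sham-operated rats that breathed filtered air. Ozone was given at 0.8 ppm to the whole body for 4 hours, air for the same 4 hours, and the tissue was frozen directly afterwards. Adrenalectomy removes the adrenal glands and with them the source of corticosterone and circulating adrenaline. Library numbers are those of the labels, and no source used here says whether a number shared by the tissues marks one animal or whether libraries of a group came from separate animals, so the p-values here speak of the variation among these libraries, which may be technical.

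HIF is a pair of proteins: an oxygen-regulated alpha subunit (HIF1A, EPAS1 or HIF3A) and a stable beta subunit (ARNT, or ARNT2 in neurons). In oxygenated cells the EGLN prolyl hydroxylases mark the alpha subunit, VHL binds the marked protein and the proteasome destroys it, so HIF activity is set largely at the protein and not at the transcript. When oxygen falls, the pair binds DNA at a short core motif and raises genes for glycolysis, blood vessel growth and collagen processing. HIF3A differs from the other alpha subunits in that several of its splice forms lack a full activation domain and restrain HIF, as described in mouse and human.

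The libraries held 6.44 to 12.4 M reads. The tissue labels were matched by regional genes: 18 hindbrain Hox genes summed to at most 3.54 RPM (reads scaled to a common library total) in hypothalamus libraries against 81.6 to 210.8 RPM in brainstem libraries, and 15 hypothalamic genes to 638 to 838 RPM in hypothalamus against 29.1 to 103 RPM in brainstem. Liver transcripts passed 2000 RPM in 4 libraries, namely sham ozone 18 in both tissues, hypothalamus sham air 2 and hypothalamus ADREX air 68. Brainstem sham air 2 lay just below that limit, at 1972 RPM, and is not counted as liver-rich. Brainstem ADREX ozone library 81 also stood apart, with the most reads (12.4 M) and the lowest oligodendrocyte marker sum of the brainstem libraries (37833 RPM). Some results are also given without these libraries, where stated.

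The stretch around the transcription start is shown for Hif3a and P4ha1. These members had the largest log2 differences of sham ozone over sham air in both tissues, which is a description and no test. RefSeq windows on the rat assembly GRCr8, from 250 bases before to 50 bases after each annotated start, matched all 9 measured genes and gave 11 windows. The reads were placed on another build, rn6, so these coordinates belong to the sequences only. Hif3a has 2 annotated starts on the minus strand of chromosome 1, at chr1:86877789-86878088 (start 1) and chr1:86872056-86872355 (start 2), and the P4ha1 window is chr20:27844796-27845095 on the plus strand. Sequences run 5′ to 3′ on the strand of the gene, and capitals mark the HIF core motif, ACGTG or GCGTG read on either strand.
Hif3a start 1: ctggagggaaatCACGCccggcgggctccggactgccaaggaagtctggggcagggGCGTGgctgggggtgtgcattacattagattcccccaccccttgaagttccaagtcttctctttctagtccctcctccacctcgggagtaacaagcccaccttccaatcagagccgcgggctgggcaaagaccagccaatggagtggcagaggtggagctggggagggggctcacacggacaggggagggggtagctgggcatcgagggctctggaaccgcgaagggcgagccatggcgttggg
Hif3a start 2: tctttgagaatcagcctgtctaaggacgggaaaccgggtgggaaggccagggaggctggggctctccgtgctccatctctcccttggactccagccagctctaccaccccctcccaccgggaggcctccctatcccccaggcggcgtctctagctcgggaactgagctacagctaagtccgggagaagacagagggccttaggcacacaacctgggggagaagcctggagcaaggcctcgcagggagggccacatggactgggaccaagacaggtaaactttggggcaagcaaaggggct
P4ha1: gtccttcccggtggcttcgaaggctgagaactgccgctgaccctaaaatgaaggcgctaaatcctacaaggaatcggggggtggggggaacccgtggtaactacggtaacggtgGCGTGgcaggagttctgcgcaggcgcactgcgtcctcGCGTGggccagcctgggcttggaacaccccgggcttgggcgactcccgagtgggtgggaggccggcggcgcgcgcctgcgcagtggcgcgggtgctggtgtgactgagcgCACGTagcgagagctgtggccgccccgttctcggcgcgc
Start 1 of Hif3a held 2 core motifs, 238 and 194 bases before the start, and start 2 held 0. The P4ha1 window held 3, at 136 and 99 bases before and 11 bases after the start. Hif1a (3 matches, of which CACGT and ACGTG overlap) and Arnt (1 match) were the other genes with the motif, so 4 of 11 windows had one, against 41.6% of 33469 RefSeq windows of the same length. A full glucocorticoid receptor element, searched as GNACA and TGTNC with 3 bases of any kind between them, was in 0 of 11 windows and in 0.439% of all windows. A match in these letters is a description of the window, and the absence of one says nothing about a factor acting elsewhere.

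Hif3a transcripts were scarce in 6 of the 8 groups and plentiful in the sham-operated rats that breathed ozone, in both tissues. In the hypothalamus, normalized counts were 2.8, 8.1, 2.5 and 10.6 in ADREX ozone libraries 81 to 84, and 7.9, 1.0, 17.6 and 5.4 in ADREX air libraries 65 to 68. They were 124.9, 48.1, 152.5 and 97.5 in sham ozone libraries 17 to 20, and 10.8, 15.3, 7.5 and 8.0 in sham air libraries 1 to 4. Every hypothalamic sham ozone library lay above all 12 others of that tissue. In the brainstem, Hif3a had 5.0, 2.4, 1.8 and 4.2 normalized counts in ADREX ozone rats, and 6.8, 3.3, 9.1 and 2.2 in ADREX air rats. It had 83.98, 48.6, 109.6 and 103.9 in sham ozone rats, and 3.2, 19.8, 3.1 and 9.6 in sham air rats. The brainstem libraries followed the same division, with no overlap between the sham ozone group and the rest.

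The means of sham ozone rats were 105.8 ± 44.5 in hypothalamus and 86.5 ± 27.6 in brainstem (SD, n = 4 each), and their libraries overlapped between the tissues. The other 6 group means ran, from high to low, through 10.4 (hypothalamus sham air), 8.92 (brainstem sham air), 7.97 (hypothalamus ADREX air), 5.99 (hypothalamus ADREX ozone), 5.35 (brainstem ADREX air) and 3.34 (brainstem ADREX ozone). Neighbours in that order overlapped in every case. In reads, the 4 sham ozone libraries together gave Hif3a 443 in hypothalamus and 332 in brainstem, against 42 and 35 in the sham air libraries of the same tissues. The low groups rest on 16 to 42 reads each, so small differences among them were not detectable at this depth. The coefficient of variation of Hif3a ranged from 31.8% to 88.0% over the groups.

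**Figure D1:**
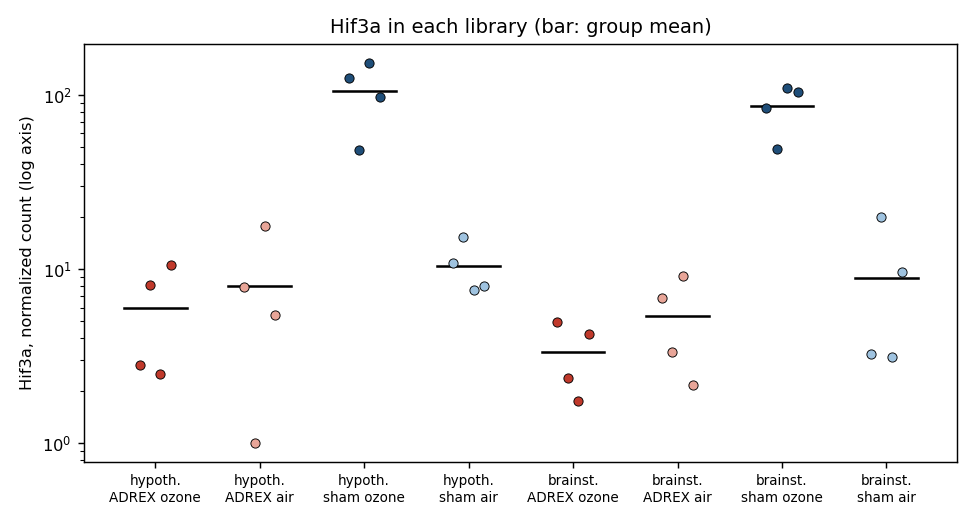
Hif3a in each of the 32 libraries, as normalized counts on a log axis, by tissue, operation and exposure; each point is 1 library and each bar the mean of 4. The sham ozone libraries sit between 48.1 and 152.5, and no library of another group passes 19.8.

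As a ratio of means, Hif3a was 10.1-fold higher in sham ozone than in sham air hypothalamus and 9.70-fold higher in brainstem. The log2 difference from limma was 3.15 ± 0.58 in hypothalamus and 3.41 ± 0.52 in brainstem (estimate ± SE, on the log2(value + 1) scale, which understates the change of scarce transcripts). By size this was place 4 among 14483 genes tested in hypothalamus and place 1 among 14408 in brainstem. The place is a description only, since the level in these libraries chose the gene. Sham ozone library 18 had the least Hif3a of its group in both tissues and was rich in liver transcripts in both, and sham air library 2 had the most Hif3a of its group in both tissues. Without the liver-rich libraries the ratios were 14.2 in hypothalamus and 11.1 in brainstem. The hypothalamic ratio left out sham ozone library 18 and sham air library 2, and the brainstem ratio only sham ozone library 18. All 9 genes passed the filter on low values, a mean of 10 or more over the 16 libraries of a tissue, but Hif3a did so only through the sham ozone libraries.

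In ADREX rats the Hif3a libraries of ozone and air overlapped in both tissues. Because the gene entered the fit only through the sham ozone libraries, its values in the other groups are given with intervals and no p. The log2 change of ADREX ozone over ADREX air was -0.15 in hypothalamus (95% interval -1.37 to 1.07) and -0.47 in brainstem (-1.58 to 0.64). The difference of the responses, ADREX minus sham, was -3.30 (95% interval -5.03 to -1.57) in hypothalamus and -3.88 (-5.45 to -2.32) in brainstem, and these are descriptions, since the sham ozone libraries chose the gene. Adrenalectomy in air gave a log2 change of -0.70 in hypothalamus (-1.93 to 0.52) and -0.46 in brainstem (-1.56 to 0.65). Those intervals include a fall of 1 log2 unit as well as no change.

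Among the other alpha subunits, Epas1, the HIF2 alpha subunit abundant in endothelium and astrocytes, was slightly higher in sham ozone rats. Its normalized counts in hypothalamus were 3999, 3891, 4036 and 4293 in sham ozone libraries 17 to 20, against 3842, 3825, 3513 and 3574 in sham air libraries 1 to 4. In brainstem they were 5406, 4888, 4928 and 4541 in sham ozone rats, against 4175, 4338, 3963 and 4494 in sham air rats. The groups did not overlap in either tissue, and the ratios of means were 1.10 in hypothalamus and 1.16 in brainstem. The log2 differences were 0.14 ± 0.08 and 0.22 ± 0.08 in those tissues, far below those of Hif3a. Groups that do not overlap were found for 9.62% of all genes tested in hypothalamus and 7.18% in brainstem.

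Epas1 did not pass the test for ozone in ADREX rats. ADREX ozone hypothalamus had 3320, 3392, 3610 and 2792 normalized counts and ADREX air hypothalamus 3990, 3251, 3285 and 3686, a log2 change of -0.12 (95% interval -0.30 to 0.06, adjusted p = 0.639, limma). ADREX ozone brainstem had 3959, 4415, 4052 and 4650 and ADREX air brainstem 4133, 4236, 4442 and 4159, a log2 change of 0.01 (-0.17 to 0.18, adjusted p = 0.992, limma). The groups overlapped in both tissues. The hypothalamic ADREX ozone libraries all lay below the hypothalamic sham ozone libraries, with a ratio of means of 0.809, and such groups without overlap were 6.64% of genes in hypothalamus and 7.29% in brainstem. Since endothelium and astrocytes express Epas1, their marker sums stand beside it: the 17 endothelial markers summed to 897 to 1076 RPM in sham ozone and 816 to 863 RPM in sham air hypothalamus, and to 1050 to 1288 RPM and 1007 to 1179 RPM in those brainstem groups. Without Slc2a1, the glucose transporter on that list, the sums of the other 16 had the opposite order, 364 to 403 RPM in sham ozone and 474 to 532 RPM in sham air hypothalamus, and 458 to 542 RPM and 538 to 655 RPM in those brainstem groups. The 12 astrocyte markers summed to 5477 to 6488 RPM in sham ozone and 5447 to 5738 RPM in sham air hypothalamus. In brainstem they summed to 8041 to 8589 RPM in sham ozone and 8099 to 9107 RPM in sham air rats. The part of cell numbers in Epas1 was not tested, and in whole tissue fewer cells of a type and less RNA per cell cannot be told apart.

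Hif1a, the ubiquitous alpha subunit, stayed within a narrow band. Its hypothalamic group means were 1236 ± 203 normalized counts in ADREX ozone, 1122 ± 174 in ADREX air, 1200 ± 119 in sham ozone and 1196 ± 84.7 in sham air rats (SD, n = 4 each). Brainstem means in that order were 1179 ± 189, 1180 ± 156, 1172 ± 121 and 1216 ± 161. All libraries lay between 899 and 1517, and the groups overlapped in every contrast. The log2 change of ADREX ozone over ADREX air was 0.14 in hypothalamus (95% interval -0.12 to 0.40) and -0.01 in brainstem (-0.30 to 0.28), neither past the test. Without brainstem library 81 the brainstem change was 0.12, also not past the test. Sham ozone over sham air gave 0.00 ± 0.12 in hypothalamus and -0.05 ± 0.14 in brainstem.

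The beta subunits were as steady. Arnt, the general partner of HIF and of the dioxin receptor, had group means of 178 to 194 normalized counts in hypothalamus and 172 to 181 in brainstem. Arnt2, the partner enriched in neurons, had means of 1220 to 1276 in hypothalamus and 1174 to 1302 in brainstem. Their log2 changes with ozone lay between -0.02 and 0.10 in both tissues and both operations, and none passed a test. The 95% intervals of ADREX ozone over ADREX air ran from -0.15 to 0.28 for Arnt and -0.21 to 0.20 for Arnt2 in hypothalamus, and from -0.21 to 0.31 and -0.11 to 0.31 for these genes in brainstem.

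Of the degradation arm, Egln3, an oxygen-sensing prolyl hydroxylase that is itself a HIF target, did not pass a test for ozone. Its hypothalamic means were 352 ± 76.0 normalized counts in ADREX ozone and 310 ± 45.5 in ADREX air rats, and 339 ± 10.8 in sham ozone and 343 ± 33.8 in sham air rats. In brainstem they were 592 ± 187 in ADREX ozone and 600 ± 102 in ADREX air rats, and 622 ± 67.8 in sham ozone and 646 ± 56.5 in sham air rats. ADREX ozone over ADREX air was 0.17 on the log2 scale in hypothalamus (95% interval -0.12 to 0.46, adjusted p = 0.668) and -0.07 in brainstem (-0.49 to 0.35, adjusted p = 0.958), by limma. The wide brainstem spread comes with library 81, which had 330 normalized counts against 597.7 to 763 in the other ADREX ozone libraries, and without it the change was 0.19.

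Vhl, which recognises the hydroxylated alpha subunit, had hypothalamic means of 859 ± 101 in ADREX ozone, 773 ± 76.6 in ADREX air, 744 ± 48.1 in sham ozone and 756 ± 32.6 in sham air rats. Brainstem means in that order were 882 ± 291, 952 ± 104, 842 ± 86.8 and 880 ± 46.6. ADREX ozone over ADREX air was 0.15 on the log2 scale (95% interval -0.04 to 0.34) in hypothalamus and -0.18 (-0.60 to 0.24) in brainstem, neither past the test. Library 81 again set the brainstem sign: with 466 normalized counts it was the lowest of all 32, and without it the brainstem change was 0.10.

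The target genes P4ha1 and Vegfa both had lower means with ozone in each tissue and operation. Whether their changes differed from each other was not tested. P4ha1, the catalytic subunit of the collagen prolyl 4-hydroxylase and a HIF1 target raised by hypoxia in many cells, was lower with ozone. In sham hypothalamus it had 194.9, 214.9, 213.2 and 166.6 normalized counts in ozone libraries 17 to 20, against 339.3, 326.8, 344.3 and 317.5 in air libraries 1 to 4. In sham brainstem it had 194.1, 224.9, 214.8 and 226.7 in ozone, against 366.2, 328.1, 340.2 and 330.7 in air. The highest sham ozone library was thus below the lowest sham air library in both tissues. In this contrast 9.62% of all genes tested in hypothalamus and 7.18% in brainstem had groups without overlap, in either direction. The ratios of means were 0.595 in hypothalamus and 0.630 in brainstem, and the log2 differences -0.75 ± 0.15 and -0.66 ± 0.15.

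In ADREX rats P4ha1 was also lower with ozone by its mean, but the call was not reached. Hypothalamus had 244.2, 208.5, 237.5 and 184.1 in ADREX ozone libraries 81 to 84 and 317.0, 423.3, 231.9 and 337.9 in ADREX air libraries 65 to 68. The log2 change was -0.56 (95% interval -0.87 to -0.25) and the adjusted p 0.586 by limma. Apart from ADREX air library 67, the hypothalamic groups were separate. Brainstem had 378.7, 221.9, 223.5 and 250.7 in ADREX ozone and 337.8, 353.6, 289.8 and 424.2 in ADREX air rats, a log2 change of -0.41 (-0.73 to -0.09, adjusted p = 0.801, limma). Only library 81 broke the separation there, and without it the change was -0.59 (adjusted p = 0.478, limma). The share of all genes that separate with a library set aside was not computed. The difference of the responses, ADREX minus sham, was 0.20 (95% interval -0.24 to 0.64) in hypothalamus and 0.26 (-0.20 to 0.71) in brainstem, so a smaller response in ADREX rats was not shown, nor an equal one.

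**Figure D2:**
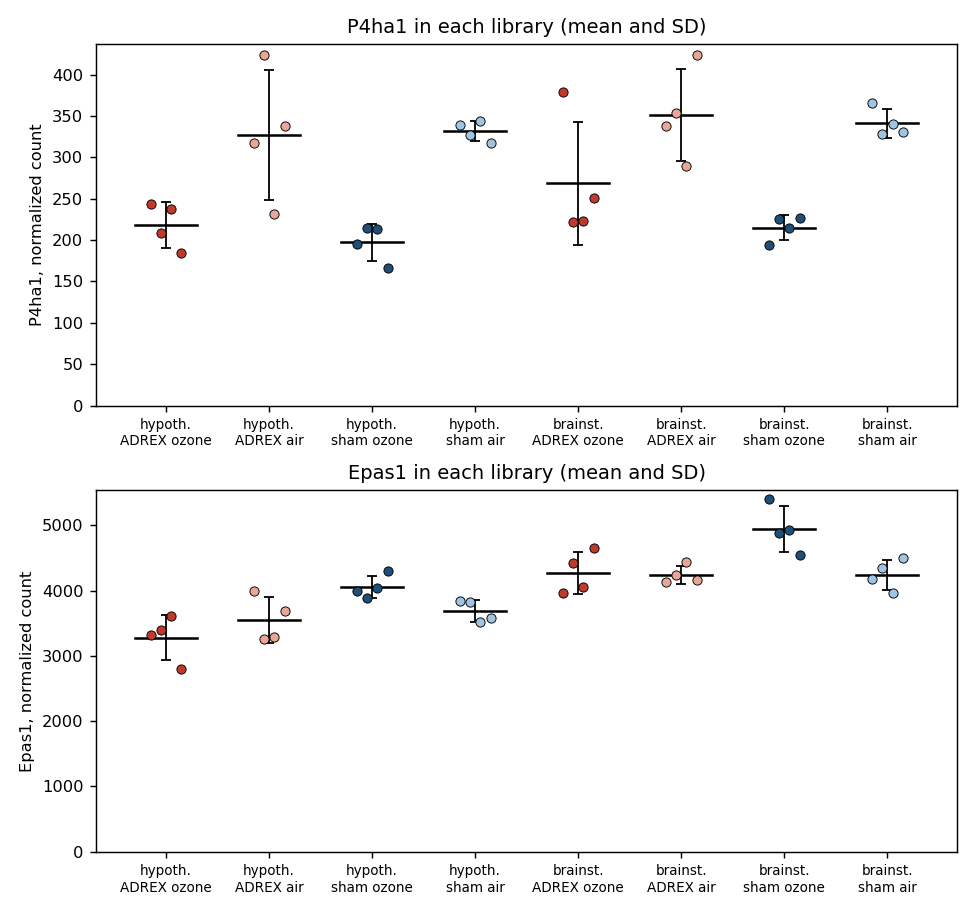
P4ha1 (top) and Epas1 (bottom) in each library, as normalized counts on linear axes from 0; points are libraries, bars the mean and whiskers the SD of 4. P4ha1 is lower by its mean with ozone in both operations and both tissues, and Epas1 is higher in brainstem than in hypothalamus of the same group in ADREX ozone, ADREX air and sham air rats.

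Vegfa, the angiogenic growth factor and a textbook HIF target, had no higher mean with ozone in any arm. In ADREX brainstem it had 1031, 1552, 1209 and 1400 normalized counts in ozone libraries 81 to 84 and 1873, 1708, 1437 and 1683 in air libraries 65 to 68. These groups overlapped, and the log2 change was -0.38 (95% interval -0.64 to -0.12, adjusted p = 0.801, limma), or -0.27 without library 81. In hypothalamus the means were 1429 ± 214 in ADREX ozone and 1503 ± 102 in ADREX air rats, a log2 change of -0.08 (-0.28 to 0.12). Sham ozone over sham air was -0.13 ± 0.09 in hypothalamus and -0.18 ± 0.12 in brainstem.

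Counted together, 0 of 9 genes (0 of 8 without Hif3a, which the filter admitted only through the sham ozone libraries) passed the test for ADREX ozone against ADREX air in either tissue, as did 0% of all genes tested. With limma, 1 member in hypothalamus (P4ha1) and 2 in brainstem (P4ha1 and Vegfa) had an unadjusted p under 0.05, against 8.03% and 5.91% of all genes, and edgeR and DESeq2 called 0 members as well. For ADREX air against sham air 0 of 9 passed in either tissue (0 of 8 without Hif3a), as did 0.0138% of genes in hypothalamus and 0% in brainstem. By limma 0 members had an unadjusted p under 0.05, against 5.57% and 3.78% of all genes, and edgeR and DESeq2 called 0. The contrasts with sham ozone libraries are no test of these genes, since those libraries chose Hif3a and fixed its place in them. For the record, the fit of sham ozone against sham air marked 2 of 9 in each tissue, Hif3a above and P4ha1 below, where it marked 1.59% of all genes in hypothalamus and 0.979% in brainstem. That of ADREX ozone against sham ozone marked 1 of 9 in each tissue, Hif3a below, where it marked 2.24% and 2.44% of genes. The mark of P4ha1 in sham brainstem was lost with edgeR, with no filter, without the liver-rich library and when any one of 11 of the 16 libraries was left out, namely each of the 8 sham libraries, ADREX air 65 or 66 and ADREX ozone 84. In hypothalamus it was lost without sham ozone library 20.

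**Figure D3:**
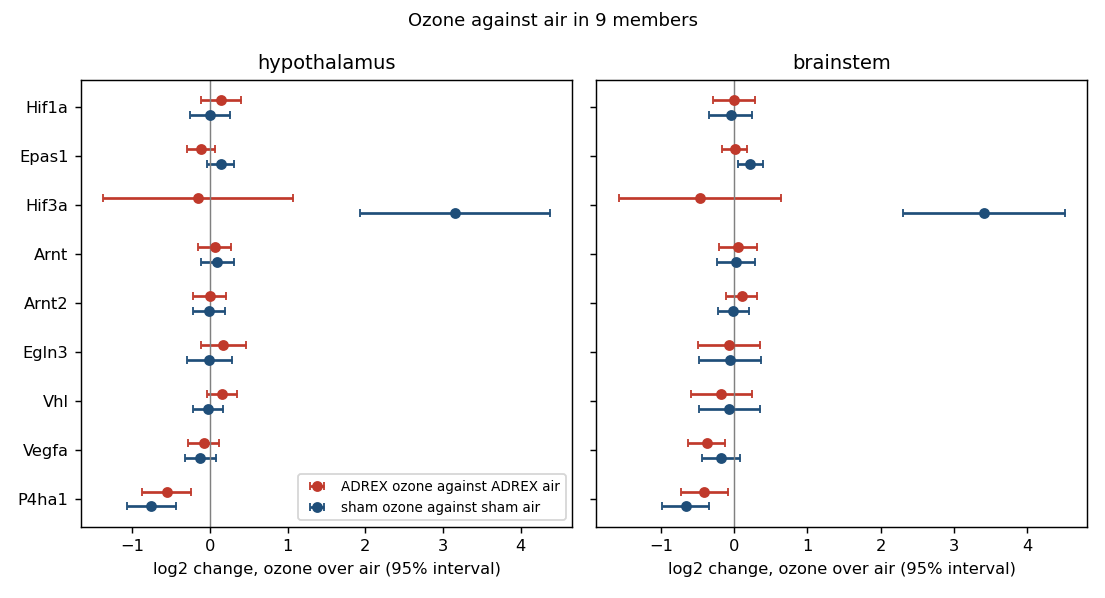
Log2 change of ozone over air for the 9 genes in hypothalamus (left) and brainstem (right), with 95% intervals from limma; ADREX rats are above sham rats within each gene. Hif3a in sham rats lies at 3.15 and 3.41 while Hif3a in ADREX rats spans 0, and P4ha1 lies below 0 in all 4 comparisons.

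Between the tissues, Egln3 was lower in hypothalamus than in brainstem in each arm tested. Its libraries held 271 to 438 normalized counts in hypothalamus and 330 to 763 in brainstem of ADREX ozone rats, 259 to 368 and 484 to 731 in ADREX air rats, and 298 to 379 and 595 to 726 in sham air rats. The tissues did not overlap in ADREX air and sham air rats, and overlapped in ADREX ozone rats through brainstem library 81; over all genes tested, tissues did not overlap for 25.5%, 28.4% and 35.5% in ADREX ozone, ADREX air and sham air rats. The log2 changes were -0.71 ± 0.18 (adjusted p = 0.00250), -0.94 ± 0.18 (adjusted p = 0.000112) and -0.91 ± 0.18 (adjusted p = 0.000157, limma over 32 libraries) in those arms. With only the compared groups in the fit the ADREX ozone value had an adjusted p of 0.0863. The sham ozone arm, given as values, had 324 to 346 in hypothalamus and 550 to 713 in brainstem.

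Epas1 was also lower in hypothalamus than in brainstem, by a smaller factor and with no overlap in any of these 3 arms. Its log2 change was -0.38 ± 0.08 in ADREX ozone rats (adjusted p = 0.000358), -0.26 ± 0.08 in ADREX air rats (adjusted p = 0.0139) and -0.20 ± 0.08 in sham air rats (adjusted p = 0.0539, limma), so the sham air value missed the threshold. With only the compared groups in the fit the ADREX ozone call of Epas1 was lost (adjusted p = 0.0522, limma). The ADREX air call was lost without hypothalamic ADREX air library 66 (adjusted p = 0.0582) or 67 (0.0581). The sham air value passed with DESeq2 (adjusted p = 0.0327) and with only the compared groups in the fit (adjusted p = 0.0333, limma). It also passed without brainstem sham air 3, brainstem ADREX ozone 81, hypothalamic ADREX air 65 or hypothalamic ADREX ozone 84. Hif3a, given without a test, had overlapping tissues and log2 changes of 0.57 (95% interval -0.60 to 1.73), 0.24 (-0.92 to 1.41) and 0.49 (-0.67 to 1.65) in ADREX ozone, ADREX air and sham air rats. The other 6 genes had changes between -0.30 and 0.14, and none passed, although the sham air values of Vhl did not overlap (ratio of means 0.859). Vhl passed in ADREX air rats without brainstem ADREX ozone library 81 (adjusted p = 0.0148, limma). In sham air rats it passed with only the compared groups in the fit (adjusted p = 0.0318, limma).

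Hif3a is among the 9 genes counted here, although its values are no test. The count was 2 of 9 genes in ADREX ozone, 2 of 9 in ADREX air and 1 of 9 in sham air rats, each lower in hypothalamus. All genes tested passed at 33%, 26.6% and 31% in those arms, so these shares are near the background between the tissues. Marker sums differed as well: 14 oligodendrocyte markers summed to 17473 to 24035 RPM in hypothalamus and 37833 to 56876 RPM in brainstem libraries, 12 astrocyte markers to 5267 to 6723 and 7498 to 9452 RPM, and the endothelial markers to 773 to 1149 and 928 to 1288 RPM. Their part in the Egln3 and Epas1 differences was not tested. The ozone response of ADREX rats did not differ between tissues past the test for any of the 9 genes. Neither did the effect of adrenalectomy in air, and Hif3a among the 9 is again no test. In both, 0% of all genes passed. With limma 0 members had an unadjusted p under 0.05 in either, against 4.99% of genes for the ozone response and 2.66% for adrenalectomy. Both edgeR and DESeq2 called 0.

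**Figure D4:**
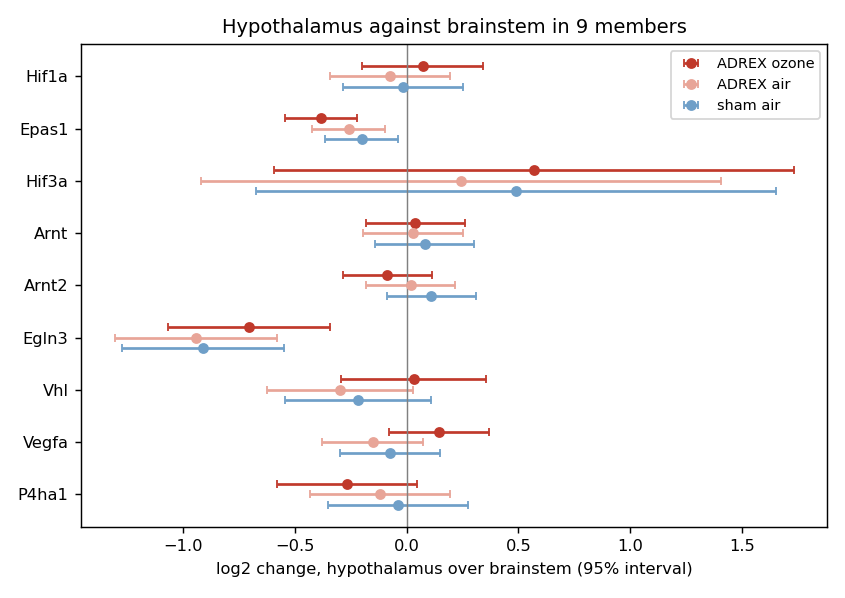
Log2 change of hypothalamus over brainstem for the 9 genes in ADREX ozone, ADREX air and sham air rats, with 95% intervals from limma over 32 libraries. Egln3 lies between -0.94 and -0.71 and Epas1 between -0.38 and -0.20, while the Hif3a intervals span 0.

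In the wider set of HIF targets no gene passed the test for ozone or for adrenalectomy apart from contrasts with sham ozone libraries. Of 61 listed genes other than the members, 60 were in the table, and 56 in hypothalamus and 53 in brainstem passed the filter on low values. In ADREX ozone against ADREX air 0 of 56 and 0 of 53 passed (limma; edgeR and DESeq2 called 0). At an unadjusted p under 0.05 there were 3 of 56 in hypothalamus, where 8.03% of all genes were, and 7 of 53 in brainstem, where 5.91% were. The log2 change was negative for 29 of 56 and 35 of 53. Their median log2 change was -0.03 in hypothalamus and -0.11 in brainstem, beside 0.00 and -0.01 over all genes tested. ADREX air against sham air also gave 0 in both tissues by limma, edgeR and DESeq2, with medians of 0.01 and -0.02. At an unadjusted p under 0.05 by limma there were 6 of 56 in hypothalamus, where 5.57% of all genes were. In brainstem there were 2 of 53, where 3.78% were. Without ADREX air library 67 the hypothalamic count of that contrast was 1.

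In sham rats, ozone against air gave 3 targets above and 1 below of 56 in hypothalamus, which is 7.14% against 1.59% of all genes. Those above included Ddit4, an inhibitor of mTOR signalling (391 ± 107 normalized counts in sham ozone and 240 ± 40.8 in sham air, SD, n = 4 each), and Vldlr, a lipoprotein and reelin receptor (1309 ± 183 in sham ozone and 879 ± 69.6 in sham air). The 1 below was Kdr, the endothelial VEGF receptor, with 136 ± 27.0 in sham ozone and 261 ± 39.4 in sham air. In brainstem 1 was above (Vldlr, 1924 ± 168 in sham ozone and 1225 ± 95.4 in sham air) and 1 below (Kdr, 181 ± 64.6 and 314 ± 26.8), 3.77% against 0.979% of genes. Ddit4 is also known to respond to glucocorticoids. The median of the list was 0.01 in hypothalamus and -0.04 in brainstem, and 46 of 56 and 48 of 53 genes lay within 0.5 of 0 on the log2 scale. The 95th percentile of the list was 0.75 in hypothalamus and 0.45 in brainstem, against 0.49 and 0.40 over all genes. The hypothalamic count was 2 without the liver-rich libraries or with no filter, and between 1 and 5 with 1 library left out. It was 1 without sham ozone library 17 and 2 without sham ozone 20, ADREX air 67, ADREX ozone 81 or 83, or any sham air library. The brainstem count was 1 with edgeR and without sham ozone 17, 19 or 20 or any sham air library.

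The same libraries in ADREX ozone against sham ozone gave 1 target above and 4 below of 56 in hypothalamus (8.93% against 2.24% of genes), and 1 above and 3 below of 53 in brainstem (7.55% against 2.44%). Kdr was the one above in both tissues, with 254 ± 43.1 in ADREX ozone and 136 ± 27.0 in sham ozone hypothalamus and 367 ± 44.8 and 181 ± 64.6 in these brainstem groups. Below in hypothalamus were Kdm3a, a histone demethylase (382 ± 47.6 and 529 ± 6.98), Aldoc, a glycolytic aldolase of astrocytes (2927 ± 136 and 4373 ± 169), Ddit4 (209 ± 14.8 and 391 ± 107) and Ndrg1 (1940 ± 157 and 2484 ± 158). In brainstem they were Car12, a carbonic anhydrase (115 ± 24.9 and 249 ± 14.7), Vldlr (1267 ± 81.9 and 1924 ± 168) and Ddit4 (211 ± 53.5 and 452 ± 114). These contrasts share the sham ozone libraries with the one that chose Hif3a and with each other.

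Kdr stands on the endothelial marker list too. In sham ozone against sham air, 3 of 17 endothelial markers passed below in each tissue: Kdr and the transporter Slco1c1 in both, the capillary glycoprotein Emcn in hypothalamus and the receptor Tie1 in brainstem. Slco1c1 had 333 ± 44.0 normalized counts in sham ozone and 684 ± 25.5 in sham air hypothalamus, and 462 ± 53.6 and 949 ± 54.4 in these brainstem groups. The fit marked 1.59% of all genes in hypothalamus and 0.979% in brainstem, both directions counted. Of the 17 markers, 14 had a negative log2 difference in hypothalamus and 12 in brainstem, with medians of -0.20 and -0.25. The summed level with and without Slc2a1 is given beside Epas1, and 0 of the markers were at 0 in any library.

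Some genes often used as readouts of HIF were named for their role after their values were seen, and did not pass in sham ozone against sham air. They were the glucose transporter Slc2a1, the glycolytic enzymes Hk2, Pgk1 and Ldha, the pyruvate dehydrogenase kinase Pdk1 and the mitophagy receptor Bnip3. Other targets did pass, among them Kdr, Ddit4 and Vldlr as given above. Because of that choice, no conclusion about HIF is drawn from these genes not passing. Slc2a1 had 4837 ± 803 normalized counts in sham ozone and 2684 ± 131 in sham air hypothalamus, and 5440 ± 955 and 3877 ± 928 in these brainstem groups, log2 differences of 0.84 ± 0.23 and 0.50 ± 0.36. The other 5 lay between -0.29 and 0.15 in hypothalamus and between -0.08 and 0.07 in brainstem. Slc2a1 is also a marker of brain endothelium and went against most of that list.

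The regulators and relatives of HIF gave no call within a tissue. Of 23 genes listed as regulators, such as hydroxylase partners, chaperones, subunits of the VHL complex and the collagen hydroxylase gene P4ha2, 22 were tested in each tissue. Of 14 relatives in the bHLH-PAS family, which includes the dioxin receptor Ahr and clock factors, 11 in hypothalamus and 8 in brainstem were tested. By limma, 0 of either list passed in ADREX ozone against ADREX air, ADREX air against sham air, sham ozone against sham air or ADREX ozone against sham ozone, in either tissue. At an unadjusted p under 0.05 the regulators had 1 gene in hypothalamus and 0 in brainstem in the first of these contrasts, and the relatives had 0 and 0. Over all genes the shares there were 8.03% and 5.91%.

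The 5 genes whose pattern over libraries was most like Hif3a were outside the HIF system. Likeness was Pearson's r of log2(value + 1) with Hif3a over the 16 libraries of each tissue, ranked by the lower of the r values among 9974 genes. Zbtb16, a zinc-finger repressor, came first (r = 0.94 in hypothalamus and 0.97 in brainstem), followed by the cytosolic glycerol-3-phosphate dehydrogenase Gpd1 (0.93 and 0.93), the RING-finger gene Lonrf3 (0.94 and 0.93), the peroxisome gene Pex11a (0.92 and 0.92) and the G-patch gene Gpatch4 (0.91 and 0.94). Zbtb16 averaged 25.3, 28.3, 205 and 47.3 normalized counts in ADREX ozone, ADREX air, sham ozone and sham air hypothalamus, and 33.1, 34.0, 254 and 49.2 in those brainstem groups. Gpd1 averaged 266, 276, 1981 and 511 in these hypothalamic groups, and 611, 641, 3839 and 1098 in these brainstem groups. The sham ozone libraries stand apart from the rest in all of them, so each r is set mainly by that one division; the points share libraries and depth, and no p is given.

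Of the other members, Epas1 came nearest to this pattern, with r of 0.59 in hypothalamus and 0.77 in brainstem and place 193 of 9974. P4ha1 ran opposite, with r of -0.63 and -0.58 and place 9544. The remaining 6 had r between -0.28 and 0.44, with places from 2307 for Egln3 to 7375 for Vhl.

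**Figure D5:**
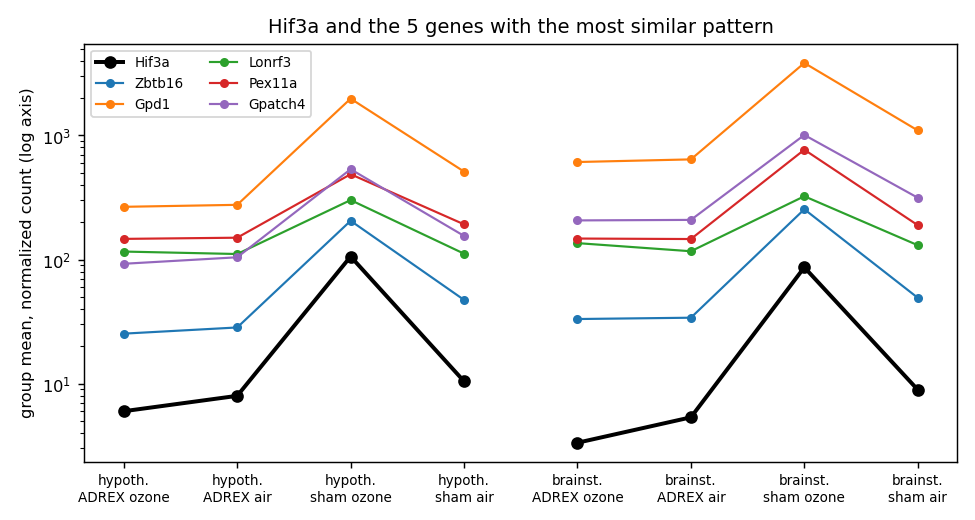
Group means of Hif3a (black) and of the 5 genes with the most similar pattern, as normalized counts on a log axis; lines join the 4 groups of a tissue only to guide the eye. All 6 genes have their highest mean in sham ozone rats of both tissues, and levels of different genes are not comparable because transcript length is not accounted for.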

How the data were processed

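RNA of rat hypothalamus and brainstem was sequenced as mRNA libraries on an Illumina NextSeq, per the labels' protocols. The authors deposited a signal, namely normalized read counts of 22587 genes in 32 libraries. Partek, DESeq2 and the genome build rn6 are named, without roles, per the submitters' processing notes. For the aligner, the annotation and the use of strand, a name was not given in the sources used here. Within each deposited column all positive values were whole multiples of 1 step (0.623 to 1.25), and dividing by it gave whole reads for 100% of positive values, within 0.001. No entry lacked a gene, and 0 columns were left unused.

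Tests used limma 3.58.1 in R 4.3.3 on log2(value + 1), for genes with a mean of 10 or more, with a mean-dependent prior and Benjamini-Hochberg adjustment over all genes, a call being an adjusted p under 0.05. Contrasts within a tissue used its 16 libraries and 4 group means, and contrasts of tissues all 32 libraries and 8 group means. Tool-based alternatives were edgeR 4.0.16 (quasi-likelihood, TMM) and DESeq2 1.42.0 on the recovered reads. The test was checked on simulated counts. The text names all members, up to 4 called genes of smallest p per list and contrast, and the 5 genes most like Hif3a with a mean of 50 or more. The members and lists were chosen with earlier results of these data known. Intervals cover the spread between libraries. Genes sharing reads with a near copy or an overlapping gene are uncertain. One called gene of the target list is not reported here by name.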

Additional observations from a re-analysis of the deposited data

Results flagged for a closer look

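In 3 of 72 groups of 4 libraries, each a measured gene in 1 of the 8 groups, 1 library lay far from the other 3 by Dixon's criterion at the 95% level, a gap above 0.829 of the range, where chance gives about 1 in 20. Arnt in hypothalamus sham air was highest in library 2, at 204 normalized counts, and that library was rich in liver transcripts. Arnt2 in hypothalamus ADREX ozone was lowest in library 84, at 1052. Vhl in hypothalamus sham air was lowest in library 1, at 708. With all libraries in the fit, none of these genes passed a limma test in a contrast with those groups.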

How the results depend on the processing

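Over 81 pairs of a gene and a tested contrast there were 2772 alternative values. Of these, 2759 stayed on the same side of the threshold, 5 were no longer past it, 8 were newly past it and 0 calls were reversed. The 2759 include 85 uncalled values that changed sign. Some alternatives left out a library outside the contrast, where the log2 change itself could not move. Pairs with Hif3a are among the 81, although its values are a description. The count of members in sham ozone against sham air, 2 in each tissue, was 1 in brainstem with no filter, a minimum mean of 50, edgeR or no liver-rich libraries, and 1 in hypothalamus at a minimum mean of 50. In ADREX ozone against sham ozone, 1 in each tissue, it was 0 at a minimum mean of 50 and 2 in hypothalamus with DESeq2, which added Epas1. For hypothalamus against brainstem it was 2 with DESeq2 and 3 with only the compared groups in sham air (1 otherwise), and 0 with only the compared groups in ADREX ozone (2 otherwise). A minimum mean of 50 leaves Hif3a untested. Targets numbered 1 with edgeR in brainstem sham ozone against sham air (2 otherwise), 2 in hypothalamus with no filter or no liver-rich libraries (4 otherwise), and 2 in hypothalamic ADREX ozone against sham ozone with only the compared groups (5 otherwise). For the rest the cause was not tested.

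With 1 library left out, members in sham ozone against sham air ranged from 1 to 2 in each tissue, and hypothalamus against brainstem from 1 to 2 in sham air and 1 to 3 in ADREX air. Targets ranged from 1 to 3 in brainstem and 1 to 5 in hypothalamus for sham ozone against sham air, and from 0 to 1 in hypothalamic ADREX air against sham air (1 without ADREX air library 67). With the library number as a replicate block, members in hypothalamus against brainstem of ADREX air rats were 1 instead of 2, Epas1 having an adjusted p of 0.0619; no other count of calls moved. The numbers were not taken as pairs, since 7 of 16 same-numbered libraries of the tissues correlated above 0.1 (-0.58 to 0.60) and 4 of 16 did so best with their own number. The log2 difference of Hif3a in sham ozone against sham air ranged over all alternatives from 2.76 to 3.68 in hypothalamus and 2.82 to 3.88 in brainstem. Few reads limit comparisons of Hif3a outside the sham ozone groups.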

Other observations

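Among the bHLH-PAS relatives, which gave no call for ozone or adrenalectomy, 4 of 10 passed as higher in hypothalamus than in brainstem in ADREX ozone rats, 5 of 10 in ADREX air rats, and 4 higher and 1 lower of 10 in sham air rats. Of all genes, 33%, 26.6% and 31% passed in either direction in those arms. Sim1, a factor needed for paraventricular neurons, was higher in hypothalamus by 6.41 ± 0.40 on the log2 scale in ADREX ozone, 5.98 ± 0.40 in ADREX air and 6.47 ± 0.40 in sham air rats (estimate ± SE, limma). Npas2, a partner in the circadian clock, was higher by 1.15, 1.26 and 0.93, and Ahr, the dioxin receptor, by 1.45, 1.18 and 1.22 in those arms. These 3 genes passed in each arm, but the passing of Sim1 is no test. Sim1 is among the hypothalamic genes used above to match the tissue labels. It had no reads in 4 brainstem libraries and in 0 hypothalamus libraries. Its difference is therefore a description, although it is counted among the 10.

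Of 22 genes on the list of HIF regulators, which also holds collagen hydroxylase genes such as P4ha2, 2 passed in ADREX ozone rats. In ADREX air rats 3 passed and in sham air rats 5, each below the share of all genes. P4ha2, a second catalytic subunit of the collagen hydroxylase, was higher in hypothalamus in ADREX air (0.79 ± 0.20) and sham air rats (0.70 ± 0.20), and Hif1an, which hydroxylates an asparagine of the alpha subunits, was lower (-0.45 ± 0.16 and -0.43 ± 0.16). Neither passed in ADREX ozone rats, where Hsp90aa1 and P4hb were lower (-0.34 ± 0.13 and -0.32 ± 0.10); whether the arms differ was not tested.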
